A study of Mus musculus with 8 samples.

Results

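The genes of the extracellular matrix described here were the collagen chains, the laminin chains, and a set of matrix-associated glycoproteins. The glycoproteins were *Smoc1*, *Smoc2*, *Sparc*, *Sparcl1*, *Fn1*, *Fbln1*, *Fbln2*, and *Fbln5*. All these genes were chosen by gene symbol, with earlier results of these data known. They comprised 61 genes measured by 85 of the 55681 probes of the array. *Col12a1* and *Col6a3* also have such symbols, but no probe was matched to them through its RefSeq accession. Expression was measured in the arcuate nucleus (Arc), the ventromedial and dorsomedial hypothalamus (VMH and DMH), and the lateral hypothalamus (LH), which were cut out by laser microdissection. The tissue came from 2 C57BL/6 female mice (C57BL/6J in the study's methods) at 3 months of age, for which no treatment or allele is named, with 2 arrays for each nucleus and 8 in all. The labels do not say which animal gave which array. Arrays of different nuclei may therefore share an animal, and the p-values measure the spread between arrays. The RNA went through whole-transcriptome amplification, and the 8 arrays lay on 1 slide with replicate 1 of every nucleus in row 1 and replicate 2 in row 2.

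Collagens are trimers of alpha chains and form fibrils, networks, and filaments between cells. Type IV collagen and the laminins, which are trimers of an alpha, a beta, and a gamma chain, build basement membranes, and in the brain these sheets lie around blood vessels and under the pia. The proteins of the SPARC family and the fibulins bind to this scaffold and modulate how cells attach to it. In bulk tissue, fewer cells of a type and less RNA per cell cannot be told apart.

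Signals are given as scaled signal, the background-corrected intensity divided by the 75th percentile of its array and rescaled so that it stays in the range of the deposited intensities. Whether a spot was measured was taken from the mark of the scanner software for signals well above background, and the lowest signal with that mark lay between 79.3 and 132 on the 8 arrays. A gene not well above background has only an upper bound, so a ratio against it is written as at least so many fold. This bound is a ratio of means of log2 signals in which each dim signal was set no lower than the lowest measured one of its array. Where 1 of the 2 arrays of a nucleus was dim, the fitted difference is given and the dim array named. Signals of the same probe are compared among nuclei, and signals of different probes are not compared. Markers of the Arc, VMH, and DMH were highest in the nucleus so labelled, with *Agrp* at 53020 and 47181 in the Arc and at most 581 elsewhere, *Nr5a1* at 12163 and 11694 in the VMH and at most 688 elsewhere, and *Prdm13* at 1661 and 1667 in the DMH and at most 140 elsewhere. The LH markers were shared with the DMH. *Hcrt* was at 105971 and 116750 in the LH and at 55940 and 51283 in the DMH. *Pmch* was at 17650 and 17005 in the LH, 16253 and 11631 in the DMH, 3938 and 3140 in the VMH, and 97.5 and 71.1 in the Arc. Replicate arrays correlated over the probes tested at 0.982 (Arc), 0.978 (VMH), 0.972 (DMH), and 0.938 (LH), and LH2 was closer to DMH2 (0.954) than to LH1.

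Between 31 member probes on VMH1 and 43 on Arc1 were well above background. For 20 of the 61 genes no array had such a signal. They were 5 fibrillar chains (*Col5a1*, *Col5a2*, *Col5a3*, *Col11a1*, and *Col11a2*), 3 type IV chains (*Col4a3*, *Col4a5*, and *Col4a6*), *Lama4*, both remaining short-chain collagens (*Col8a1* and *Col10a1*), *Col15a1*, *Col13a1*, *Col17a1*, *Col9a1*, *Col14a1*, *Col22a1*, *Col28a1*, *Col6a5*, and *Col6a6*. A further 6 genes, among them *Col1a1*, *Col4a4*, *Col6a4*, *Col9a3*, and *Col19a1*, were measured on 1 to 3 arrays without reaching both arrays of a nucleus. The remaining 35 genes, with 41 probes, had both arrays of some nucleus well above background and were tested, and 19 of them were measured on all 8 arrays. Because a gene could pass this filter through its highest nucleus alone, counts over the 41 probes describe these probes only.

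By the F-test of limma with Benjamini-Hochberg adjustment over all probes tested, 10 of the 41 member probes (24.4%) differed among the nuclei, and 8.34% of all 28894 tested probes did. The 10 probes belonged to 9 genes, namely *Col23a1*, *Lama1*, *Lamb3*, *Col6a1*, *Col9a2*, *Col2a1*, *Col24a1*, *Smoc2*, and *Col8a2*. The highest mean lay in the Arc for *Col23a1*, *Col6a1*, *Col2a1*, *Col24a1*, and *Smoc2*, and in the VMH for the laminin chains *Lama1* and *Lamb3*. *Col9a2* and *Col8a2* were marked by a low level in the VMH. Without scaling between arrays, *Col9a2*, *Col24a1*, and *Col8a2* no longer passed the F-test. For *Col24a1* and *Col8a2* this was also the case after normexp background correction and with trended moderation. With single arrays left out, the number of member probes past the F-test ranged from 3 without Arc2 to 15 without LH2, and only *Lama1*, *Lamb3*, and 1 probe of *Col23a1* passed whichever array was left out.

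**Figure D1:**
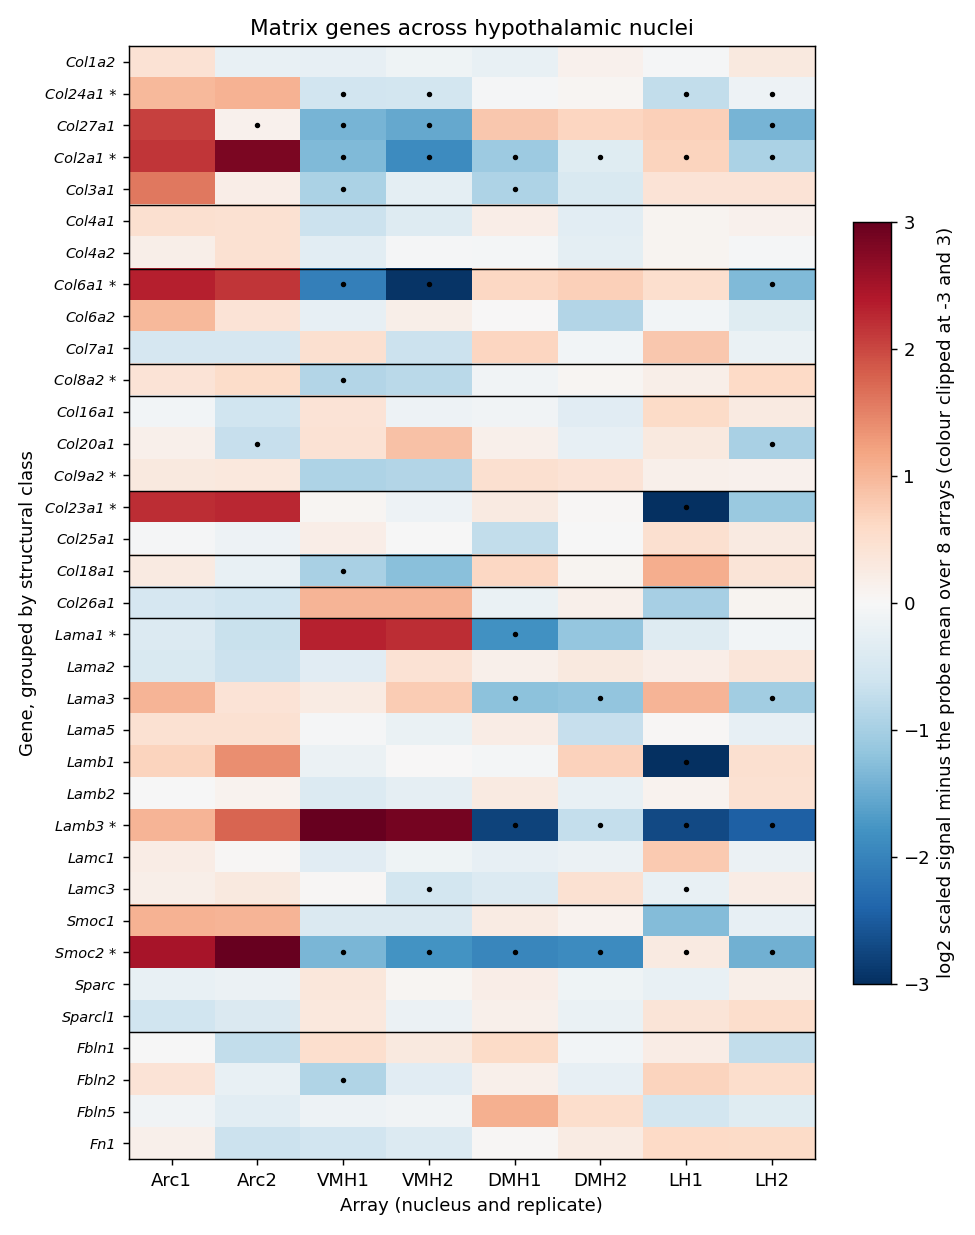
Log2 scaled signal of the 35 tested genes on each of the 8 arrays, minus the mean of the probe over the arrays, with 1 probe per gene, genes in rows grouped by structural class, and arrays in columns. Black dots mark signals not well above background and asterisks mark genes whose shown probe passed the F-test. *Col6a1*, *Col2a1*, *Col23a1*, and *Smoc2* are red on both Arc arrays, and *Lama1* and *Lamb3* are darkest red on both VMH arrays.

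*Col23a1* encodes a transmembrane collagen, which is held in the plasma membrane and can be shed from it. Its first probe gave 1549 on Arc1 and 1558 on Arc2, against 130 and 168 in the VMH, 98.9 and 164 in the DMH, and 85.3 and 81.9 in the LH. Both Arc arrays thus exceeded every other array, and in the other nuclei the probe was well above background on VMH2 and DMH2 only. The Arc was higher than the VMH by 3.40 on the log2 scale (SE 0.28, adjusted p = 0.00162 by limma), than the DMH by 3.61 (adjusted p = 0.00271), and than the LH by at least 14.6-fold (adjusted p = 0.000983). These calls held whichever array was left out. The second probe gave 1352 and 1394 in the Arc, 304 and 262 in the VMH, 352 and 298 in the DMH, and 24.5 and 135 in the LH. It showed the Arc highest as well, but only its difference from the LH passed the threshold (log2 difference 4.58, SE 0.69, adjusted p = 0.0101 by limma). LH1 was not well above background, and the difference was 3.34 without it and 3.73 with dim signals raised to the floor. It lost the threshold without Arc1 (adjusted p = 0.0746) and without Arc2 (adjusted p = 0.0680). The F-test of the second probe was also lost when any 1 of the Arc, VMH, or DMH arrays was left out, with an adjusted p of up to 0.145. The third probe of *Col23a1* was measured on no array.

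The promoter window of *Col23a1* is shown because its first probe had the smallest adjusted p of the member probes in the F-test. The windows printed here are RefSeq sequences of the build GRCm38.p6 that run from 250 bases before a transcription start to 50 bases after it, and windows were found for 43 of the 61 member genes. A pair of short promoter motifs were looked for on both strands, GGGCGG (the GC box bound by factors of the Sp family) and CCAAT (the CCAAT box). GGGCGG was in 35.7% and CCAAT in 37.4% of all 32851 windows. Of the 49 member windows, 29 held GGGCGG and 15 held CCAAT. Some genes have more than 1 window, and a match is a stretch of letters and not a binding site. The window of *Col23a1* lies at chr11:51289670-51289969 on the plus strand and holds 1 GGGCGG match, which reads on the opposite strand, 11 bases before the start and is in capitals.
Col23a1: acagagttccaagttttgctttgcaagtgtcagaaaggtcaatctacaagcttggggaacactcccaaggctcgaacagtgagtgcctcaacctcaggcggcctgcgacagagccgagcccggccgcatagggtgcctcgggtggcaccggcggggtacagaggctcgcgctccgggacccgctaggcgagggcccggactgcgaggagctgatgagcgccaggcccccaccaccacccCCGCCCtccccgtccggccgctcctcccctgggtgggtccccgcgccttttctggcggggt

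*Smoc2* encodes a secreted modular calcium-binding protein of the SPARC family. It gave 429 on Arc1 and 3988 on Arc2, against 29.9 and 22.5 in the VMH, 20.01 and 20.9 in the DMH, and 93.5 and 28.4 in the LH, none of which was well above background. Both Arc arrays lay above all the others, but they differed from each other by 9.29-fold. The Arc was at least 12.6-fold higher than the VMH (adjusted p = 0.0220), at least 13.9-fold higher than the DMH (adjusted p = 0.0455), and at least 11.8-fold higher than the LH (adjusted p = 0.0326) by limma. On Arc1 alone these bounds were 4.13-fold, 4.55-fold, and 3.86-fold, and without Arc2 none of the calls held (adjusted p = 0.0590 against the VMH, 0.104 against the DMH, and 0.0822 against the LH). The call against the VMH was also lost without either VMH array (adjusted p up to 0.117), and that against the LH without LH2 (0.0736) or any 1 of the VMH or DMH arrays (up to 0.0647). The F-test of *Smoc2* was lost without Arc2 (adjusted p = 0.0712) and without any 1 of the VMH or DMH arrays (adjusted p up to 0.0904). The difference from the DMH also missed the threshold after quantile normalization or normexp background correction, with dim signals raised, with no filter on dim probes, in a fit of the Arc and DMH arrays alone, and without any 1 of the VMH or DMH arrays (adjusted p up to 0.227).

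*Smoc1*, the paralog of *Smoc2*, was well above background on all 8 arrays. It gave 1866 and 1847 in the Arc, 673 and 671 in the VMH, 1083 and 977 in the DMH, and 367 and 766 in the LH. The Arc arrays were again the highest, and the Arc exceeded the LH by 1.81 on the log2 scale (SE 0.34, adjusted p = 0.0213 by limma). Without LH1 this difference was 1.28 and without LH2 it was 2.34. The call was lost without either Arc array, with an adjusted p of up to 0.126. The difference from the VMH was 1.47 (adjusted p = 0.0541), and the F-test missed the threshold as well (adjusted p = 0.0537).

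*Sparc*, a collagen-binding glycoprotein secreted by glia and vessels, and *Sparcl1*, its relative known from astrocytes, passed in no comparison. *Sparc* gave 71838 and 74549 in the Arc, 106995 and 87486 in the VMH, 97323 and 76833 in the DMH, and 72228 and 96022 in the LH (F-test adjusted p = 0.646 by limma). A second probe of *Sparc* had another order, with 12705 and 17236 in the Arc, 19045 and 15440 in the VMH, 17535 and 11798 in the DMH, and 25680 and 15982 in the LH (F-test adjusted p = 0.645 by limma). The Arc was lowest by the first probe only. *Sparcl1* gave 8083 and 8947 in the Arc, 15199 and 10759 in the VMH, 13533 and 10648 in the DMH, and 15837 and 17488 in the LH. Both Arc arrays were below all the others for *Sparcl1*, in the direction opposite to *Smoc1* and *Smoc2*, and the log2 difference of the Arc from the LH was -0.97 (95% interval -1.55 to -0.38, adjusted p = 0.0560 by limma). The 8 astrocyte markers, measured on all arrays, summed to 31512 and 39274 in the Arc and to 45633 to 66688 elsewhere. Of them 3 passed as lower in the Arc than in the LH (6.02% of all tested probes). Against the VMH, *Gfap* passed as higher in the Arc (2.4% of all) and *Gjb6* as lower (3.52% of all). *Gjb6* also passed as lower in the Arc than in the DMH (0.727% of all). The part of astrocytes in the level of *Sparcl1* was not tested.

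Type VI collagen forms beaded filaments from an alpha 1, an alpha 2, and a further alpha chain. *Col6a1* gave 868 and 758 in the Arc, 41.6 and 22.1 in the VMH, 264 and 281 in the DMH, and 241 and 68.1 in the LH. It was thus measured on both arrays of the Arc and the DMH, on LH1, and on neither array of the VMH. The Arc was at least 7.81-fold higher than the VMH (adjusted p = 0.00629) and 2.66 higher than the LH on the log2 scale (SE 0.58, adjusted p = 0.0339), and the DMH was at least 2.62-fold higher than the VMH (adjusted p = 0.0465), all by limma. LH2 was not well above background, and the difference from the LH was 1.75 without it and 2.19 with dim signals raised. The F-test was lost without Arc1 (adjusted p = 0.0785), Arc2 (0.0712), or VMH2 (0.0705), and the 3 pairwise calls were each lost without either Arc array, with adjusted p up to 0.0581, 0.182, and 0.107 in these fits. The last 2 were also lost without single VMH or DMH arrays, and the last when dim signals were raised to the floor of measured probes. *Col6a2*, its partner chain, gave 419 and 284 in the Arc and 117 to 243 on the other arrays. Its Arc arrays were the highest too, but no difference passed (log2 difference from the DMH 1.12, SE 0.36, adjusted p = 0.283 by limma).

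**Figure D2:**
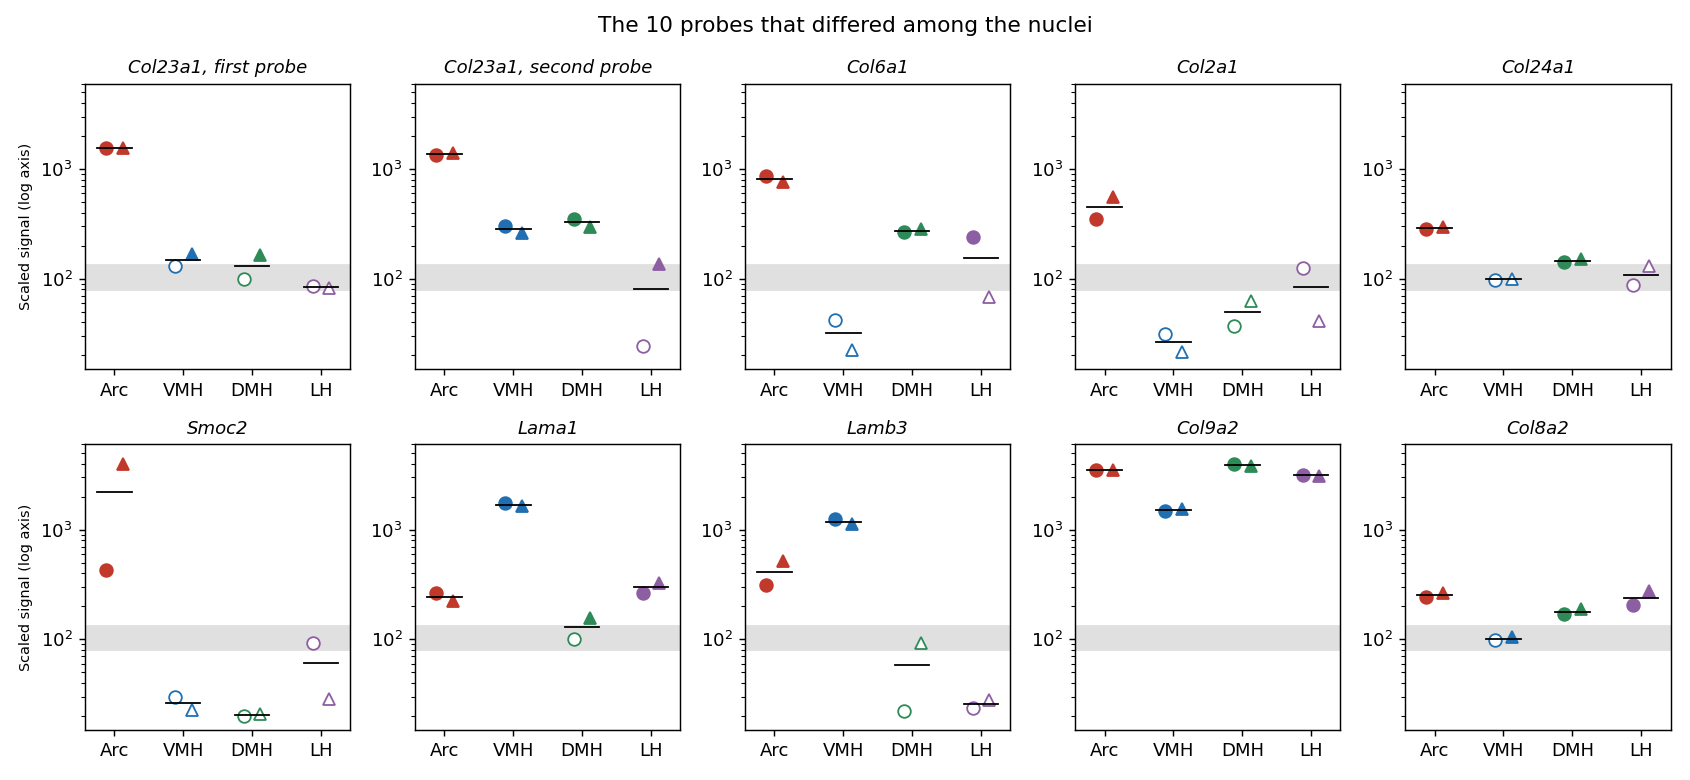
Scaled signal on a log axis of the 10 member probes that passed the F-test, by nucleus, with circles for replicate 1, triangles for replicate 2, and bars for the mean of both arrays. Filled symbols are well above background, open symbols are not, and the grey band spans the lowest measured signal of the 8 arrays. The 2 Arc signals of *Smoc2* lie at 429 and 3988, whereas those of the first *Col23a1* probe lie at 1549 and 1558.

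Among the fibrillar collagens, *Col2a1*, best known as the collagen of cartilage, gave 348 and 557 in the Arc, 31.5 and 21.5 in the VMH, 37.3 and 62.0 in the DMH, and 125 and 40.9 in the LH, and it was well above background in the Arc only. The Arc was at least 4.24-fold higher than the VMH (adjusted p = 0.00904) and at least 3.43-fold higher than the LH (adjusted p = 0.0321), whereas the difference from the DMH missed the threshold (adjusted p = 0.0534 by limma). The F-test was lost without any 1 of the Arc or VMH arrays, with an adjusted p of up to 0.127, as were both pairwise calls, the one against the LH also without a DMH array. *Col24a1*, a fibrillar chain of low abundance, gave 283 and 297 in the Arc, 97.7 and 98.7 in the VMH, 141 and 151 in the DMH, and 86.9 and 130 in the LH. Replicates of the Arc, VMH, and DMH lay close together, those of the LH did not, and the DMH stood between the Arc and the unmeasured VMH and LH. The Arc was at least 2.64-fold higher than the VMH (adjusted p = 0.0134) and at least 2.71-fold higher than the LH (adjusted p = 0.0138 by limma). Without an Arc array both calls were lost, the first also without a VMH array and the F-test without any 1 of the Arc, VMH, or DMH arrays, with adjusted p up to 0.0965, 0.0918, and 0.143. Both calls were lost without scaling and after normexp background correction as well.

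The tested chains of type I and type III collagen, the main fibrillar collagens of connective tissue, did not pass. *Col1a2* gave 1592 and 1013 in the Arc, 1002 and 1086 in the VMH, 1022 and 1295 in the DMH, and 1151 and 1457 in the LH, and the Arc range overlapped that of each other nucleus (F-test adjusted p = 0.797 by limma). *Col3a1* gave 595 and 226 in the Arc and 102 to 264 on the other arrays, so that Arc1 alone stood above the rest. *Col27a1* gave 332 on Arc1 and was not well above background on Arc2 (87.6), and it was between 27.6 and 140 elsewhere.

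Among the laminin chains, 2 had their highest level in the VMH. *Lama1*, the alpha chain of laminin-111 in early and specialised basement membranes, gave 1742 and 1630 in the VMH, 264 and 222 in the Arc, 100 and 157 in the DMH, and 267 and 330 in the LH. The VMH arrays were far above the others, among which DMH1 alone was not well above background. By limma the VMH exceeded the Arc by 2.80 (adjusted p = 0.00288), the DMH by 3.75 (adjusted p = 0.00185), and the LH by 2.50 (adjusted p = 0.00543) on the log2 scale, each with an SE of 0.27. *Lama1* was the only member higher in the VMH than in each other nucleus, where 0.54% of all tested probes were. The calls against the Arc and the DMH held whichever array was left out, and the call against the LH was lost without VMH1 (adjusted p = 0.0507).

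*Lamb3*, a beta chain of the laminin that anchors epithelia, gave 1241 and 1130 in the VMH, 310 and 516 in the Arc, 22.2 and 93.3 in the DMH, and 23.6 and 28.0 in the LH. It was thus measured in the VMH and the Arc and on no array of the DMH or the LH. The VMH was at least 12.5-fold higher than the DMH (adjusted p = 0.0141) and at least 11.6-fold higher than the LH (adjusted p = 0.00590), and the Arc was at least 3.91-fold higher than the LH (adjusted p = 0.0116), all by limma. The VMH arrays were also above the Arc arrays, but that difference missed the threshold (adjusted p = 0.214). The first call was lost without VMH1 (adjusted p = 0.116) or VMH2 (0.0923), the second without VMH1 (0.0545), and the third without Arc1 (0.0556) or Arc2 (0.0797). *Lama3* encodes an alpha chain that assembles with it. *Lama3* gave 157 and 223 in the VMH and 268 and 175 in the Arc, and it was not well above background in the DMH (56.8 and 57.9). Its LH arrays differed, with 269 on LH1 and an unmeasured 64.5 on LH2, and the F-test did not pass (adjusted p = 0.232 by limma).

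The promoter of *Lamb3* is shown because this gene and *Nr5a1*, a nuclear receptor of VMH neurons, were both highest in the VMH. RefSeq gives 2 windows for *Lamb3*, and the first, at chr1:193301744-193302043 on the plus strand, is printed. The letters CAAGGTCA, a recognition sequence of *Nr5a1*, were in neither *Lamb3* window. On either strand, they were in 1.56% of all windows and in 2 of the 49 member windows. The looser pattern CAAGGNCA, which includes CAAGGTCA, was in 6.71% of all windows and in 4 of the 49 member windows. It matched the first *Lamb3* window once, 187 bases before the start, in capitals. This match reads CAAGGACA and is not the recognition sequence above.
Lamb3: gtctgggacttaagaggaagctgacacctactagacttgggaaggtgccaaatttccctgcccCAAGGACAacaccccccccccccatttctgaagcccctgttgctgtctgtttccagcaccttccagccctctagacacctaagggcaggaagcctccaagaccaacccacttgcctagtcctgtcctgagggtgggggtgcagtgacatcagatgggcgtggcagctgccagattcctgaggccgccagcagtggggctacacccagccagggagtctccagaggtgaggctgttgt

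The other laminin chains are common to many basement membranes and passed in no comparison. *Lama5*, the main alpha chain of the adult vessel wall, gave 1812 and 1812 in the Arc, 1283 and 1158 in the VMH, 1542 and 821 in the DMH, and 1366 and 1113 in the LH. The Arc arrays were the highest, but the DMH arrays differed between themselves by more than the Arc differed from the VMH. *Lama2*, the alpha chain of muscle and glial basement membranes, gave 832 and 725 in the Arc and 892 to 1536 elsewhere. *Lamb1* gave 816 and 1345 in the Arc and 454 to 824 elsewhere except on LH1, where it was not well above background (63.3). *Lamb2*, *Lamc1*, and *Lamc3* had an F-test adjusted p of 0.392, 0.556, and 0.732 by limma.

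**Figure D3:**
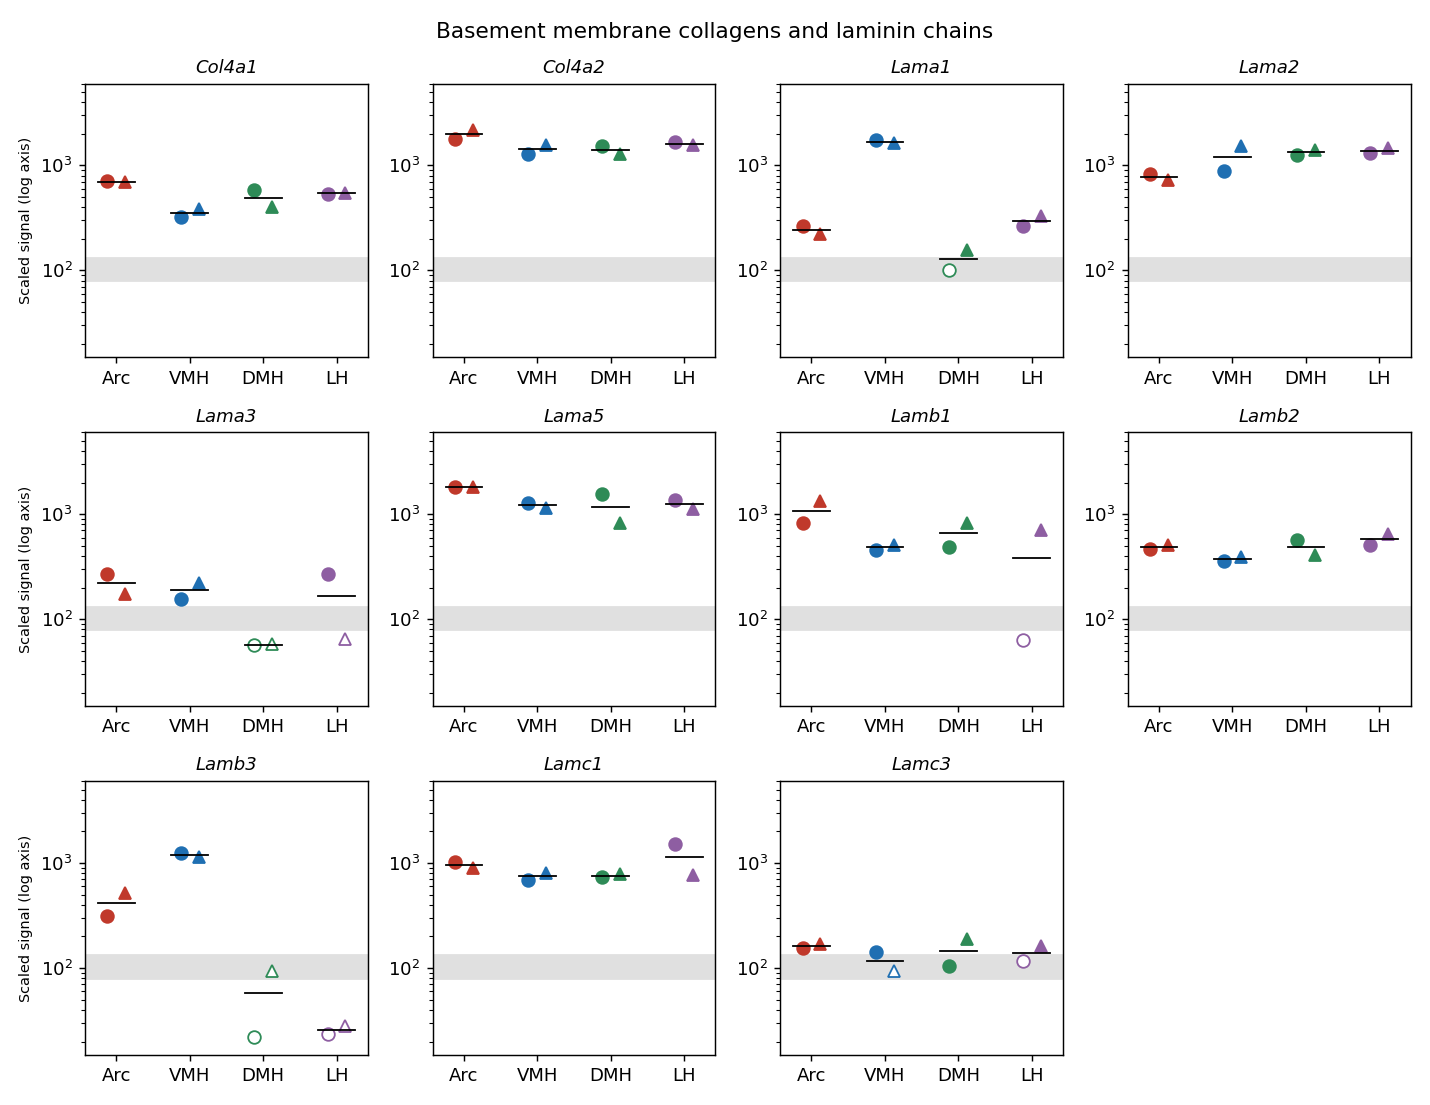
Scaled signal on a log axis of *Col4a1*, *Col4a2*, and the 9 tested laminin chains, by nucleus, with circles for replicate 1, triangles for replicate 2, and bars for the mean of both arrays. Filled symbols are well above background, open symbols are not, and the grey band spans the lowest measured signal of the 8 arrays. *Lama1* and *Lamb3* stand out in the VMH, at 1742 and 1630 and at 1241 and 1130.

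*Col4a1* and *Col4a2* encode the chains of the ubiquitous type IV collagen trimer of vascular basement membranes and are transcribed in opposite directions from neighbouring starts. *Col4a1* gave 708 and 697 in the Arc, 323 and 386 in the VMH, 577 and 403 in the DMH, and 531 and 551 in the LH. *Col4a2* gave 1791 and 2162 in the Arc, 1278 and 1557 in the VMH, 1530 and 1292 in the DMH, and 1673 and 1549 in the LH. For both genes the Arc arrays were above all the others, and neither passed the F-test (adjusted p = 0.136 and 0.401 by limma). The log2 difference of the Arc from the VMH was 0.99 (95% interval 0.43 to 1.55, adjusted p = 0.0609) for *Col4a1* and 0.48 (-0.04 to 1.00, adjusted p = 0.284) for *Col4a2*. The summed signal of the 8 endothelial markers was 4898 and 5046 in the Arc, 4679 and 5340 in the VMH, 5772 and 7245 in the DMH, and 8115 and 10566 in the LH, with 6 or 7 of the 8 well above background on each array. The median log2 difference of the Arc from the VMH over the 7 tested markers was -0.04, from -0.67 for *Flt1* to 0.40 for *Esam*. The part of endothelial cells in the levels of *Col4a1* and *Col4a2* was not tested.

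Both promoter windows of this pair are shown because the genes share their start region. The starts are 21 bases apart and the windows overlap by 78 bases. The window of *Col4a1* lies at chr8:11312777-11313076 on the minus strand, and that of *Col4a2* at chr8:11312555-11312854 on the plus strand. Matches to GGGCGG and CCAAT on either strand are in capitals. *Col4a1* holds 1 and *Col4a2* holds 3 GGGCGG matches, and 1 of them is the same genomic site, which lies 9 bases after the first base transcribed of *Col4a1* and 7 after that of *Col4a2*. Each window has 1 CCAAT match, at different sites.
Col4a1: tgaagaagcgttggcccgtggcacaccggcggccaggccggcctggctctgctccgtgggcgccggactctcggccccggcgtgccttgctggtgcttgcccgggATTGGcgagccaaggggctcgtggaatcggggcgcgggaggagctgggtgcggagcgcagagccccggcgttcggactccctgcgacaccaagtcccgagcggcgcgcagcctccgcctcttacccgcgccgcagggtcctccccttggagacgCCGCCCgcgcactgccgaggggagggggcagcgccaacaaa
Col4a2: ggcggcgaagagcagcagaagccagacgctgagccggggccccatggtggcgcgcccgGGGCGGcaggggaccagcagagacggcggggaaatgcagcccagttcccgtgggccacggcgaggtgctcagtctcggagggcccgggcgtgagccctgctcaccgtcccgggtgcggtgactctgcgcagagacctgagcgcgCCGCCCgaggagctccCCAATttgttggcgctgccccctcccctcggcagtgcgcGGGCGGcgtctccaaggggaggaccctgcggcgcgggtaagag

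A low level in the VMH marked the remaining 2 genes past the F-test. *Col9a2*, a chain of the fibril-associated type IX collagen, gave 1496 and 1555 in the VMH, 3518 and 3538 in the Arc, 4005 and 3789 in the DMH, and 3185 and 3114 in the LH. The 4 pairs of replicates did not overlap, and the VMH was lower than the Arc by 1.21, than the DMH by 1.35, and than the LH by 1.05 on the log2 scale (SE 0.18 each, adjusted p = 0.0125, 0.0153, and 0.0240 by limma). It was the only member lower in the VMH than in each other nucleus, where 0.485% of all tested probes were. The F-test was lost without Arc1, Arc2, VMH1, VMH2, or DMH1, with an adjusted p of up to 0.103. Each pairwise call was lost without either VMH array and without at least 2 other arrays, with adjusted p up to 0.0952, 0.117, and 0.140, and all 3 were lost without scaling. *Col8a2*, a chain of the short network collagen of Descemet's membrane and vessels, gave 98.2 and 104 in the VMH, 242 and 265 in the Arc, 169 and 188 in the DMH, and 204 and 276 in the LH. The VMH was lower than the Arc by 1.32 (SE 0.22, adjusted p = 0.0182) and than the LH by 1.23 (adjusted p = 0.0264 by limma). VMH1 was not well above background, and with dim signals raised the differences were 1.17 and 1.07. Both calls and the F-test were lost without any 1 of the Arc or VMH arrays, the call against the LH and the F-test also without a DMH array, with adjusted p up to 0.124, 0.151, and 0.164. Both calls were lost without scaling and with trended moderation as well, and the one against the LH also after normexp background correction.

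*Col18a1*, the multiplexin whose C-terminal fragment is endostatin, missed the F-test (adjusted p = 0.0516) but was higher in the LH than in the VMH. It gave 133 and 108 in the VMH, 549 and 340 in the LH, 315 and 223 in the Arc, and 401 and 274 in the DMH. The VMH arrays were the lowest, and VMH1 was not well above background. The log2 difference between the LH and the VMH was 1.85 (SE 0.33, adjusted p = 0.0272 by limma), and it was lost without any 1 of the Arc and VMH arrays, without LH1, and without scaling, with an adjusted p of up to 0.135. *Col26a1*, a collagen outside the other families, was highest in the VMH, with 861 and 866 in the VMH, 304 and 283 in the Arc, 375 and 474 in the DMH, and 216 and 456 in the LH. It did not pass the F-test (adjusted p = 0.0859), nor did its difference between the VMH and the Arc (log2 1.56, adjusted p = 0.0508 by limma).

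Fibronectin and the fibulins among the members, which link fibrils, elastic fibers, and cell surfaces, passed in no comparison. *Fn1* gave 1136 and 647 in the Arc, 688 and 770 in the VMH, 1048 and 1207 in the DMH, and 1528 and 1522 in the LH, highest in the LH (F-test adjusted p = 0.164 by limma). *Fbln5*, needed for elastic fiber assembly, was highest in the DMH, with 910 and 635 there, 407 and 354 in the Arc, 397 and 405 in the VMH, and 298 and 339 in the LH. Both DMH arrays exceeded all the others, and the difference from the LH was 1.26 on the log2 scale (95% interval 0.70 to 1.82, adjusted p = 0.0695 by limma). *Fbln2* gave 259 and 168 in the Arc, 105 and 155 in the VMH, 218 and 166 in the DMH, and 310 and 281 in the LH, and VMH1 was not well above background. *Fbln1* has 2 tested probes, which differed in their highest nucleus. The first gave 511 and 312 in the Arc, 736 and 632 in the VMH, 769 and 490 in the DMH, and 604 and 309 in the LH, and the second was highest in the DMH with 381 and 407.

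Among the collagens not yet described, *Col25a1*, the transmembrane collagen found in amyloid plaques, had 3 tested probes that disagreed. The probe for the transcript NM_198711 gave 2060 and 1881 in the Arc, 2415 and 2083 in the VMH, 1259 and 2092 in the DMH, and 2923 and 2550 in the LH, and a probe for NM_029838 was highest in the Arc with 1140 and 981 against 289 to 663 elsewhere. Neither passed the F-test (adjusted p = 0.347 and 0.102 by limma). *Col7a1*, the anchoring fibril collagen, gave 550 and 549 in the Arc, 1084 and 504 in the VMH, 1218 and 740 in the DMH, and 1377 and 684 in the LH. *Col16a1*, a fibril-associated collagen, gave 802 to 1808 over the 8 arrays. Both Arc arrays of *Col7a1* were below the DMH and LH arrays, and both LH arrays of *Col16a1* (1808 and 1450) were above the Arc and DMH arrays, but neither gene passed the F-test (adjusted p = 0.557 and 0.319 by limma). *Col20a1* was highest in the VMH with 229 and 308 (F-test adjusted p = 0.450 by limma).

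Over the 41 tested probes, the Arc was the nucleus with the highest mean for 19, the LH for 13, the VMH for 6, and the DMH for 3. Among all tested probes the Arc was highest for 30.1%, the LH for 29.1%, the VMH for 26%, and the DMH for 14.8%. Both Arc arrays lay above all the other arrays for 12 member probes, as they did for 8.61% of all tested probes, and both VMH arrays lay below all the others for 9, as for 7.32% of all. The median log2 difference of the Arc from the VMH was 0.48 over the member probes and 0.01 over all tested probes, from the DMH it was 0.34 and 0.02, and from the LH 0.16 and 0.05. Without scaling, the median difference of the Arc from the VMH was 0.21 over the members and -0.26 over all probes, from the DMH -0.14 and -0.46, and from the LH 0.01 and -0.11. After quantile normalization the difference from the LH was 0.01 over the members and 0.02 over all, and after normexp background correction 0.014 and 0.0042.

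Members past the threshold were also counted in each pairwise test of limma. Against the VMH, 7 member probes were higher in the Arc (2.4% of all tested probes) and 1 was lower (3.52% of all). Against the LH, 8 were higher in the Arc (3.32% of all) and 0 lower (6.02% of all). Against the DMH, 2 were higher in the Arc (0.533% of all) and 0 lower (0.727% of all). Between the VMH and the DMH, 2 were higher in each direction (1.1% and 0.945% of all). Between the VMH and the LH, 2 were higher in the VMH (2.24% of all) and 3 in the LH (3.04% of all). Without scaling these counts were 4 and 2 for the Arc and the VMH, 2 and 1 for the VMH and the DMH, and 2 and 0 for the VMH and the LH. No member probe passed between the DMH and the LH (0.924% of all), and 5 had an unadjusted p under 0.05. The first probe of *Col23a1* and *Smoc2* exceeded each other nucleus in the Arc, as did 0.339% of all tested probes. These 2 were also the only members whose mean was at least 10-fold that of every other nucleus, which held in the Arc for 0.0575% of the 55681 probes. *Smoc2* met this through Arc2 (3988), as Arc1 was at 429 and the LH mean at 60.9. The second probe of *Col23a1* was 4.23-fold over the next nucleus.

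The 2 Arc arrays are shown apart because some matrix genes differed between them. Over the 41 probes the median log2 difference of Arc1 from Arc2 was 0.10, and 3 probes differed by more than 2-fold, against 4.1% of all tested probes. In the other nuclei 1 VMH probe, 1 DMH probe, and 12 LH probes did so, against 5.57%, 4.87%, and 14.9% of all. *Smoc2* was 9.29-fold higher on Arc2, and *Col27a1* and *Col3a1* were 3.79-fold and 2.63-fold higher on Arc1. *Col1a1*, the partner of *Col1a2*, was at 273 on Arc1 and not well above background on Arc2 (27.2). Markers of leptomeningeal fibroblasts, the collagen-producing cells of the pia and arachnoid, moved with the last 3 genes. The 10 markers had a summed signal of 8313 on Arc1, 2909 on Arc2, and 1381 to 4036 on the other arrays. On Arc1 6 of them were well above background and each of these was lower on Arc2, where 3 were well above background. *Dcn* was at 4162 and 1375, *Islr* at 1059 and 351, and *Lum* at 350 and 98.3 on Arc1 and Arc2, while *Slc47a1* was measured on no array. These named markers with a signal were highest on Arc1 among all arrays, but others of the list were not. *Slc6a13* was at 276 on Arc1 and at 318 to 518 in the DMH and the LH, and *Igf2* at 136 and at 163 to 245. The 8 oligodendrocyte markers, each measured on all arrays, were also all higher on Arc1, with a sum of 23668 against 15530, and none of them by more than 2-fold. The part of these cells in the differences between the Arc arrays was not tested. *Cga*, a hormone subunit of the anterior pituitary, was at 1425 on Arc1 and at most 30.4 on the other 7 arrays, whereas the pituitary markers *Gh*, *Prl*, *Tshb*, and *Pou1f1* were not well above background on any array, and *Lhb* was so on 3 arrays of the VMH and the DMH.

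**Figure D4:**
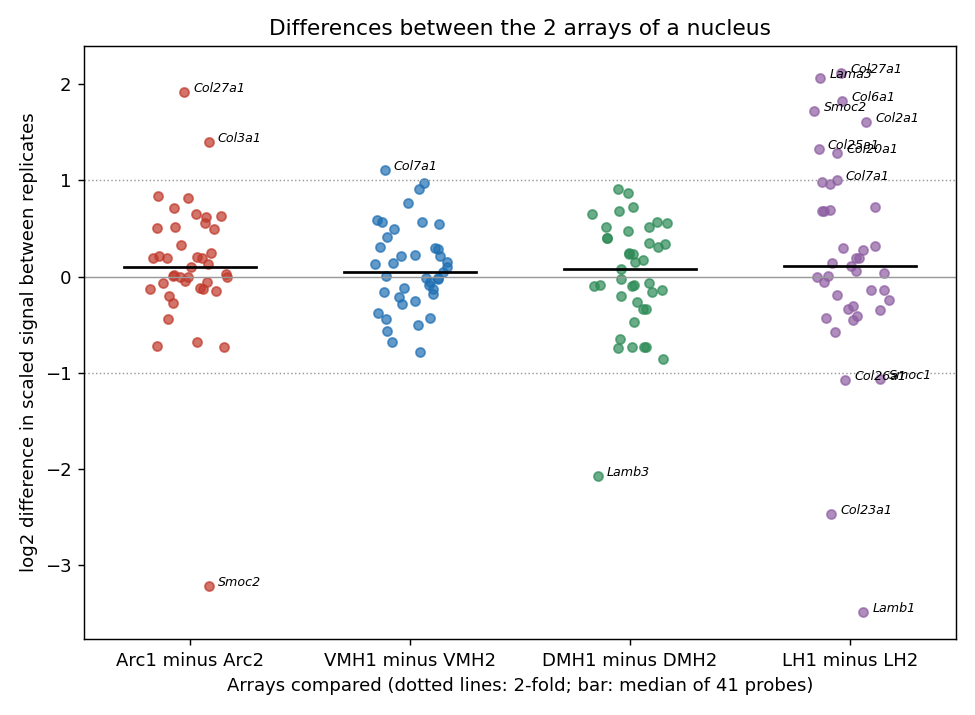
Log2 difference in scaled signal between replicate 1 and replicate 2 of each nucleus, with 1 point per tested member probe (41 per nucleus), a bar at the median, and dotted lines at 2-fold. Probes beyond 2-fold are named. The Arc has 3 of them, *Smoc2* at 9.29-fold toward Arc2 and *Col27a1* and *Col3a1* toward Arc1, and the LH has 12.

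Beside the genes high on both Arc arrays, some markers of tanycytes, the cells that line the floor of the ventricle beside the Arc, were high there too. *Rax* was at 1738 and 1360 in the Arc and at most 120 elsewhere, and *Vim* at 1926 and 1503 and at most 852 elsewhere. *Nes* (822 and 313 in the Arc, 183 to 394 elsewhere) and *Ccdc153* (891 and 1138 in the Arc, 696 to 1282 elsewhere) did not pass the F-test (adjusted p = 0.496 and 0.872 by limma). The 6 markers of tanycytes and ependymal cells summed to 5460 and 4436 in the Arc and to 1586 to 2472 elsewhere, with 4 of the 6 measured on each Arc array. The ependymal markers *Foxj1* and *Tmem212* were measured on no array. Of the 5 choroid plexus markers, *Ttr* was at 209 and 251 in the Arc and at most 161 elsewhere, *Clic6* was highest in the VMH, and the sum was 3241 and 3080 in the Arc and 1502 to 4950 elsewhere. The part of these cells in the levels of *Col23a1*, *Col6a1*, *Col2a1*, and *Smoc2* was not tested. In the LH the 8 oligodendrocyte markers summed to 120304 and 122412, against 15530 to 44942 elsewhere, and 8, 5, and 4 of them passed as higher there than in the Arc, the VMH, and the DMH. No member passed as higher there than in the Arc or the DMH, whereas *Col18a1*, *Col8a2*, and *Col9a2* exceeded the VMH there. The part of oligodendrocytes in these was not tested.

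Genes that build, receive, and accompany the matrix were counted in the same fit. Of the 4 tested partners of the basement membrane (nidogen, perlecan, agrin, and nephronectin), 1 passed the F-test by limma, which 8.34% of all tested probes did. This was *Npnt*, an integrin ligand, with 1562 and 1420 in the VMH and 33.5 to 295 elsewhere. It was higher in the VMH than in the Arc (adjusted p = 0.00815) and the LH (adjusted p = 0.0482) by limma, and neither Arc array was well above background. Of the 17 tested genes of collagen synthesis and crosslinking 0 passed the F-test, and 1 passed between 2 nuclei. This was the prolyl hydroxylase subunit *P4ha3*, with 1342 and 1383 in the Arc against 620 and 268 in the LH (adjusted p = 0.0378 by limma). Of all tested probes, 3.32% passed as higher in the Arc than in the LH. Of the 13 tested matrix receptors 4 passed the F-test. *Itga11*, a collagen receptor subunit, gave 204 and 194 in the Arc, 81.9 and 132 in the VMH, and at most 27.3 in the DMH and the LH (F-test adjusted p = 0.00256 by limma). It was well above background on both Arc arrays and VMH2 only.

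The other 3 receptors past the F-test bind laminins. *Bcam*, which binds the laminin alpha 5 chain, was highest in the Arc with 1557 and 1410 and lowest in the VMH with 207 and 374 (adjusted p of that difference = 0.00659 by limma). *Itgb4*, the beta subunit of an epithelial laminin receptor, gave 1933 and 1824 in the LH and 40.7 to 338 elsewhere, with neither Arc array well above background. *Itga7* gave 1096 and 1538 in the LH and 473 and 476 in the Arc. Between the LH and the Arc the adjusted p was 0.00497 for *Itgb4* and 0.0124 for *Itga7* by limma. The nuclei with high *Itgb4* and high *Lamb3* were thus different ones. A further receptor subunit, *Itgb1*, missed the F-test but passed between 2 nuclei, with 1052 and 1142 in the Arc against 407 and 542 in the VMH (adjusted p = 0.0275 by limma). Of the 19 tested other matricellular and elastic matrix genes, *Spock1* and *Fstl1* passed, 2 of 19 against 8.34% of all tested probes. *Spock1*, a proteoglycan related to SPARC, was highest in the VMH with 1251 and 1464 against 478 to 851 elsewhere. *Fstl1*, a secreted SPARC-like glycoprotein, gave 2681 and 1911 in the Arc, 723 and 891 in the VMH, 877 and 1146 in the DMH, and 1839 and 2115 in the LH. Another 4 of these genes passed between 2 nuclei without passing the F-test. Of all tested probes, 2.4% passed as higher in the Arc than in the VMH. In the LH, 6.02% passed as higher than in the Arc and 3.04% as higher than in the VMH. *Thbs1*, a thrombospondin, was higher in the Arc (277 and 204) than in the VMH (105 and 89.4, adjusted p = 0.0265 by limma). *Vtn*, the adhesive protein vitronectin, and *Tnr*, a tenascin of perineuronal matrix, were higher in the LH (3752 and 3715, and 3215 and 2708) than in the Arc (1744 and 1683, and 1701 and 1697, adjusted p = 0.0247 and 0.0472 by limma). *Fbln7*, a fibulin, was higher in the LH (3189 and 2375) than in the VMH (876 and 1052, adjusted p = 0.0240 by limma).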

How the data were processed

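Per the file headers, the authors extracted the spot intensity on a linear scale with Agilent Feature Extraction 10.7.3.1 (the labels give 11.5.1.1), with background subtracted and no scaling between arrays. The labels name Cy3 and the methods Cy5, and the red channel was deposited. The authors' methods state a minimum ratio of 10-fold and no test for the arrays. In the deposited series table, 99.7% to 99.8% of probes per array equal these intensities after rounding (within 0.51).

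Outlier spots were left out, spots of a probe averaged, arrays divided by their 75th percentile, and log2 taken. Probes with both arrays of some nucleus well above background (28894) entered 1 limma fit (limma 3.58.1, R 4.3.3, residual degrees of freedom 4), adjusted by Benjamini and Hochberg at 0.05. On simulated data with all 28894 probes the F-test found 61% of probes raised 4-fold and 94% of those raised 16-fold in the DMH. The number of arrays limits the precision.

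Of 28390 probes with a RefSeq accession, 26762 were named through GRCm38.p6. A gene is shown by its brightest probe, and others where they disagree in call or direction. The members and lists were chosen with earlier results of these data known. Values on every array are given for members past the F-test, the brightest member of each class, and the glycoproteins, and other matrix genes are named where called. Of the members, 1 is counted but not reported here.

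Promoter windows and motif matches were handled in Python 3.11.15. The alternatives are listed with their effect in the closing section.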

Additional observations from a re-analysis of the deposited data

How the results depend on the processing

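Counts of member probes past the threshold changed with the processing as follows, and the cause was not tested except where fewer probes or arrays entered. Without scaling, 2 passed between the VMH and the LH and 1 met the 10-fold criterion, which 0 met after normexp with an offset of 50. Without a filter on dim probes, 1 passed between the Arc and the DMH and 3 between the VMH and the LH. With probes measured on all 8 arrays only, 4 passed the F-test, 4 between the Arc and the VMH, 0 between the Arc and the DMH, 2 between the Arc and the LH, 1 between the VMH and the DMH, 2 between the VMH and the LH, 1 between the DMH and the LH, and 0 the 10-fold criterion. With dim signals raised, 4 passed between the Arc and the DMH and 1 between the DMH and the LH, and with trended and robust moderation 4 between the Arc and the DMH. The one-way ANOVA with Benjamini-Hochberg adjustment gave 3. Fits of only the nuclei compared gave 13 between the Arc and the VMH, 5 between the Arc and the DMH, 2 between the Arc and the LH, and 2 between the VMH and the LH.

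With the replicate number as a block, 10 passed the F-test and 1 passed between the Arc and the DMH, and *Smoc2* missed the threshold in both (adjusted p = 0.0507 and 0.0743). The correlation of the deviations of same-numbered arrays ranged from -0.03 to 0.26 and was not positive for every pair of nuclei, so the numbers were not taken to pair the samples. With each array left out in turn, 3 to 15 passed the F-test, 2 to 12 between the Arc and the VMH, 1 to 5 between the Arc and the DMH, 1 to 9 between the Arc and the LH, 1 to 6 between the VMH and the DMH, 0 to 11 between the VMH and the LH, 0 to 4 between the DMH and the LH, and 1 to 2 met the 10-fold criterion. Quantile normalization, the table of all arrays, and outlier spots kept left every one of these counts within 1.5 times. Single differences were followed for 1 contrast of each gene past the F-test and of each glycoprotein, and the other named calls were not counted here. Some of these contrasts, such as those of *Sparc* and *Fn1*, had not passed at the outset. None changed its sign. Of their values under the alternatives, 248 kept their side of the threshold, 41 lost it, and 6 gained it.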
